A study of Mus musculus with 4 samples.

Results

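The subject is a set of 1427 stretches of open chromatin that lie between genes and were found in CD4-CD8- double-negative (DN) but not in CD4+CD8+ double-positive (DP) thymocytes of the mouse. ATAC-seq, which reads out where a transposase can cut accessible DNA and insert adapters, was run on 2 DN and 2 DP samples. All came from the thymus of C57BL/6J mice, wild type and 5 to 7 weeks old. The DN samples were sorted as CD25+ and CD44-/+, and cells of both stages were processed directly after sorting. Each sample has 1 deposited list of peaks, called on that sample alone, and each peak carries a position and a p-value from the authors' peak caller. Peaks on chromosomes 1 to 19 and X that shared at least 1 bp were merged across the 4 lists into 107607 regions. Members were chosen by these peak calls: a region was kept if it had a peak in each DN list and in no DP list (DN-only), if its midpoint lay outside the span of every protein-coding RefSeq gene, and if that midpoint was more than 1 kb from any span end (intergenic). The members make up 1.33% of all regions and 2.51% of the 56741 intergenic regions. These counts follow from the choice itself and carry no test. The opposite set, intergenic regions held by both DP lists and neither DN list (DP-only), has 2685 members, or 4.73% of the intergenic regions, and 1739 intergenic regions were held by all 4 lists.

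The lists held 38808 and 33131 peaks in DN 1 and DN 2, and 39718 and 70385 in DP 1 and DP 2. Read counts do not come with the lists, so the depth of each sample is unknown, and a missing peak can mean closed chromatin or too few reads. The labels do not say whether the samples of a stage are separate animals, and their spread may therefore be only technical. The sort labels were set against peaks in or within 1 kb of marker genes. Cd8a and Cd8b1 held 0 peaks in either DN list, against 2 and 2 at Cd8a and 8 and 6 at Cd8b1 in the DP lists. Cd4 held 1 peak in DN 1 and 0 in DN 2, against 7 and 4 in DP 1 and DP 2. Il2ra, which encodes the CD25 used for the sort, held 5 peaks in DN 1 and 0 in DN 2, against 6 in each DP list. Of 5 markers of CD25+ DN cells (Il2ra, Ptcra, Cd44, Kit and Notch1), 5 had a peak in DN 1 and 2 in DN 2, against 4 and 5 in DP 1 and DP 2. DN 2 lacked peaks at Il2ra, Ptcra and Notch1 and DP 1 at Ptcra, so these peaks do not set the DN lists apart from the DP lists. Of 6 pan-T genes, 2 had a peak in each DN list, against all 6 in each DP list. A peak was present in DN 1, DN 2, DP 1 and DP 2 at 2, 2, 2 and 5 of 7 B cell markers, at 1, 1, 2 and 1 of 8 myeloid markers, and at 1, 2, 2 and 3 of 6 erythroid markers. The same counts for NK and innate lymphoid genes were 2, 0, 1 and 2 of 5. Stromal genes gave 4, 2, 4 and 2 of 8, and dendritic cell genes 3, 3, 3 and 2 of 5. Their part in the results below was not tested.

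Thymocytes pass through the DN stages before they express both CD4 and CD8. In the CD25+ DN stages Notch signals commit the cells to the T lineage, regulators of the blood progenitor are turned off, and the genes of the T cell receptor beta, gamma and delta chains are rearranged. Open chromatin between genes commonly marks enhancers, boundary elements and the starts of long noncoding RNAs, and such elements tend to be more specific to a cell type than promoters. An enhancer need not act on the gene next to it, so a nearest gene is given here only as a landmark.

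Sequence was at hand for members that overlap the annotated start of a noncoding gene, in windows running from 250 bases before to 50 after the start. Such a window touched 34 members (2.38%), against 88 DP-only intergenic regions (3.28%) and 123 of those in all lists (7.07%). All 35 windows under members belonged to long noncoding RNAs (lncRNAs). The windows below, from RefSeq on GRCm38.p6 and written 5′ to 3′ on the strand of the lncRNA, are 6 of these 35. They are shown as examples of the letters at lncRNA starts in members. The first 4 are the best ranked windows that lie wholly inside a member. Gm39767 holds the most motifs, and Gm32810 starts in the chain with the most members, whose nearest gene is Dsel; 232 of the 300 bases of its window lie in the member. The choice was made with the values in view. Capitals mark matches, on either strand, to letter strings of factors active in early T cells: the string of the RUNX family is TGTGGT and that of the ETS family is AGGAAGT. E-box proteins are represented by CAGCTG and by the related form CAGGTG. The GATA factors are searched with AGATAA, the TCF factors with CTTTGAT, and the factor MYB with TAACNG. None of these strings contains another.
Gm9875, chr2:13558653-13558952, plus strand: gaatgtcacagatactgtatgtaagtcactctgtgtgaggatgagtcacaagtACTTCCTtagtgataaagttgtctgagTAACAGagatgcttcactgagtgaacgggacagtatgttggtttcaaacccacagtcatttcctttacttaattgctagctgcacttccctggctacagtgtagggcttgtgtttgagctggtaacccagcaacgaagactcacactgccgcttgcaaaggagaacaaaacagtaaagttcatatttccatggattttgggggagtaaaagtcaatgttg
Gm36908, chr10:25621514-25621813, minus strand: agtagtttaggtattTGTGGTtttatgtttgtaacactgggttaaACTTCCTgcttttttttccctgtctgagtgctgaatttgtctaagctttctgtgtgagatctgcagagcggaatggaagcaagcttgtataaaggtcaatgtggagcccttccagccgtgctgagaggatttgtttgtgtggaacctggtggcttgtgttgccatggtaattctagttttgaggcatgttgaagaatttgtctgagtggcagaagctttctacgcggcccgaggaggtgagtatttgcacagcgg
4930471G24Rik, chr13:47667300-47667599, plus strand: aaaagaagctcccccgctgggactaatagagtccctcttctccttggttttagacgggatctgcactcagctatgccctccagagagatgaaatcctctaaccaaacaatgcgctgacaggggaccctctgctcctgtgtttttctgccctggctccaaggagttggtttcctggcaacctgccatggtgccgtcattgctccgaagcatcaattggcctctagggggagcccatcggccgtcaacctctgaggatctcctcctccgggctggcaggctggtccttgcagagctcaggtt
Gm40924, chr13:39923162-39923461, minus strand: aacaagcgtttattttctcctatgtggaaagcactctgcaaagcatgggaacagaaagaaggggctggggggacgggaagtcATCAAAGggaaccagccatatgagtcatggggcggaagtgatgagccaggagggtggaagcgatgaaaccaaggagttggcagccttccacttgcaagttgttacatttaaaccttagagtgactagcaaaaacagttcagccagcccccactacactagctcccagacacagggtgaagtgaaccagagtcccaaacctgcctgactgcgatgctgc
Gm39767, chr2:21964118-21964417, minus strand: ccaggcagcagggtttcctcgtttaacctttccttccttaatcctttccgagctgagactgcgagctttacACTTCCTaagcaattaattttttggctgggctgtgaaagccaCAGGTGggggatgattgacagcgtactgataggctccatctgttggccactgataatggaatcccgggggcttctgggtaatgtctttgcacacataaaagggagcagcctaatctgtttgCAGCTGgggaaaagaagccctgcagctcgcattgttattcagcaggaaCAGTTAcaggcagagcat
Gm32810, chr1:112416869-112417168, minus strand: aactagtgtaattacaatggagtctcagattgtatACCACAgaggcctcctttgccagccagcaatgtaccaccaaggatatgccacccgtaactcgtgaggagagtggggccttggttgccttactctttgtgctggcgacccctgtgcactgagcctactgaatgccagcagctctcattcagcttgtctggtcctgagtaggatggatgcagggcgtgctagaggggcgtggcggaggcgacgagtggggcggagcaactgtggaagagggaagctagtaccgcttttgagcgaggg

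The Gm9875 window holds an ETS and a MYB string, and the Gm36908 window a RUNX and an ETS string. The 4930471G24Rik window holds none of the 7, and the Gm40924 window holds 1, the TCF string. Gm39767 holds 4 kinds, namely ETS, both E boxes and MYB. The RUNX string marked in the Gm32810 window lies in the part of the window outside the member. Of the 34 members with a window, the window held 0 of these kinds of string at 7, 1 at 15, 2 at 10, 3 at 1 and 4 at 1. Strings were counted over whole windows, and some windows lie only partly in the member. At Gm19434, for example, 29 of the 300 bases do, and its RUNX and MYB strings lie outside them. Parts of a member outside its window were not read. The RUNX string was in 9 of the 35 windows (25.7%), against 18.2% of the 110 windows under DP-only regions, 22.5% of the 142 under regions in all lists and 20.1% of all 11574 lncRNA windows. The ETS string was in 17.1% of the member windows, against 13.6% of DP-only, 12.7% of shared and 9.88% of all lncRNA windows. The E box CAGCTG was in 11.4% of the member windows, near the 11.3% of shared windows and below the 21.8% of DP-only and 17.6% of all lncRNA windows. The member shares of RUNX, ETS and CAGCTG rest on only 9, 6 and 4 of the 35 windows, and no gap was tested. For the other 4 strings the shares in the member windows and in all lncRNA windows were 22.9 and 21.1% for CAGGTG, 11.4 and 14.0% for GATA, 5.71 and 4.67% for TCF, and 28.6 and 27.5% for MYB. Each of these 4 gaps is smaller than 1 window of the 35 (2.86%). The member windows had a median G+C share of 48.3% and a median of 5 CpG, against 53% and 7 under DP-only regions, 52% and 8.5 under shared regions, and 48.3% and 4 over all lncRNA windows. In G+C the lncRNA starts in members thus lie at the level of lncRNA starts in general. All 16 planned strings were counted in these windows, and only the 7 marked above are given in full. Among the rest, the widest gaps to all lncRNA windows were of similar size to those of RUNX and ETS. They were 31.4% of member windows against 25.3% for the NFAT string GGAAAA, and 2.86% against 9.37% for the STAT string TTCNNNGAA. A match describes the letters only.

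Of all 2703 DN-only regions, 52.8% were intergenic, 1079 lay inside a gene and 197 within 1 kb of a gene end. Over all regions, whatever lists held them, 52.7% were intergenic, so the DN-only class does not stand above that background. It lies above the classes that both lists of a stage or all lists held: 33.5% of the 8003 DP-only and 21.9% of the 7951 shared regions were intergenic. Of single peaks, 43.0% in DN 1 and 51.6% in DN 2 lay in intergenic regions, against 35.7% in DP 1 and 45.8% in DP 2. The groups overlap, and the mean of 47.3 ± 6.04% in DN against 40.7 ± 7.13% in DP (SD, n = 2 each) gave a two-sided exact permutation p of 0.667, where 0.333 is the smallest that 2 against 2 samples allow. The number of members rests on both DN lists being required: DN 1 alone held 8925 intergenic regions and DN 2 alone 10739. When a single DN list stood for the stage, 12189 regions qualified without DN 1 and 10364 without DN 2. Leaving out a DP list moved the number less, to 1615 without DP 1 and 1930 without DP 2. A further 694 intergenic regions had peaks in both DN lists and in 1 DP list, 188 of them in DP 1 and 506 in DP 2. At the edge of the distance rule, the members nearest to a gene lay 1001 bp from Ghsr, 1128 bp from Aff1 and 1137 bp from Thbd. The DN-only regions just outside it lay 935 bp from Magel2, 900 bp from Bag2 and 897 bp from Ifi44.

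The members stood a little above the middle of the DN lists. Ranks were given as percentiles within a list, with 0 for the lowest p-value and tied peaks at their mean rank. The median member stood at percentile 35.4 in DN 1 and 32.1 in DN 2, whereas intergenic regions in all 4 lists stood at 17.3 in DN 1 and 20.1 in DN 2. The best 10% of a list took in 83 members in DN 1 (5.82%) and 163 in DN 2 (11.4%), and 34 members in both. Of intergenic regions in all 4 lists it took in 24.8% in DN 1 and 23.3% in DN 2. At the other end, 277 members in DN 1 and 340 in DN 2 carried the largest p-value of their list, and 122 did so in both. As a share that is 19.4% in DN 1 and 23.8% in DN 2, against 35.4 and 44.2% of all peaks in these lists. Across members the percentiles of the 2 lists had a Pearson correlation of 0.383 and a Spearman correlation of 0.410 (n = 1427 regions, described without a test, since both lists chose them). Overlap of the DN peaks is part of the rule, so their centres are close by choice: they differed by a median of 50 bp, the step of the grid on which peaks start, as in the DP-only and shared regions. They differed by at most 100 bp in 75.8% of members, against 80.2% of DP-only and 83.4% of shared regions. Members had a median width of 550 bp (300 to 1500), as did DP-only intergenic regions, against 750 bp for regions in all lists and 350 bp for those of 1 list. Together they cover 826.35 kb.

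**Figure D1:**
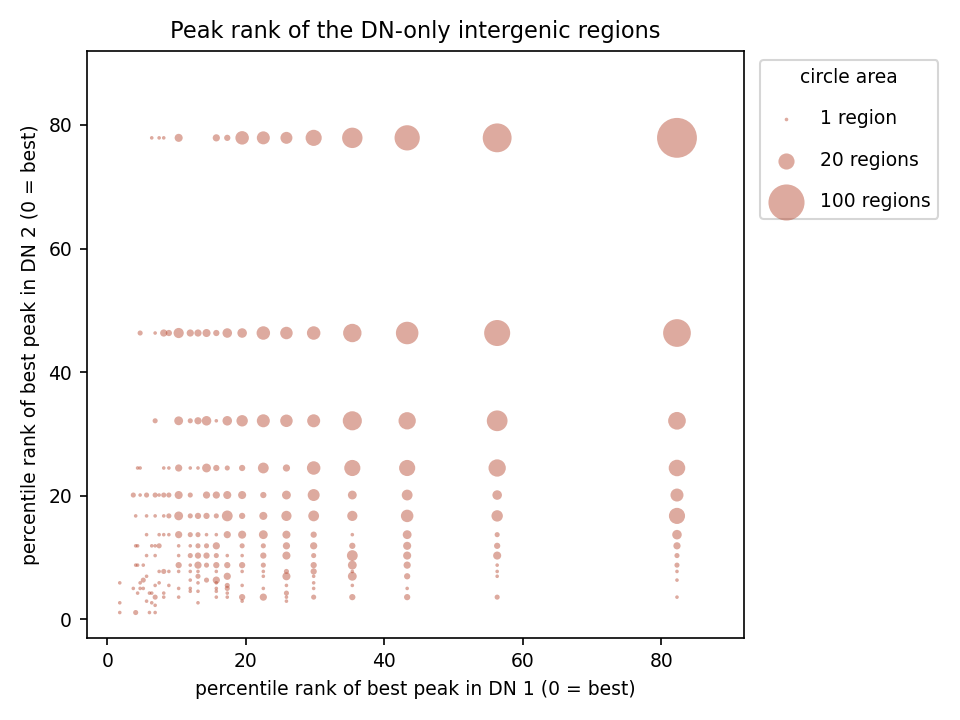
Percentile rank of each member's best peak in DN 1 (horizontal axis) and DN 2 (vertical axis), 0 being the lowest p-value of a list; circle area gives the number of regions at a point, since p-values take few distinct values. The largest circle, at the top right, stands for the 122 members at the largest p-value of both lists, and few members lie near 0 on both axes.

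Members lay farther from genes than DP-only and shared intergenic regions, but nearer than intergenic regions over all. Between a member's midpoint and the closest protein-coding gene the median distance was 73311 bp, with quartiles of 21212.5 and 225795.5 bp. DP-only intergenic regions had a median of 22943 bp and those in all lists 30501 bp, while all intergenic regions had 127780 bp and those of a single list 164095 bp. The members thus sit between the classes called in several lists and the regions called in 1 list. Within 10 kb of a gene lay 189 members (13.2%), against 29.5% of DP-only intergenic regions. Between 10 and 100 kb lay 624 (43.7%, against 49.9%), between 100 and 500 kb lay 482 (33.8%, against 17.4%), and beyond 500 kb lay 132 (9.25%, against 3.28%). The rule uses distance only at 1 kb, but which peaks a list holds also sets these medians. Over all intergenic peaks of a list, the median distance was 91251.5 bp in DN 1 and 166562 bp in DN 2, against 44852.5 bp in DP 1 and 89352 bp in DP 2. The groups do not overlap, though DN 1 and DP 2 are close, and the two-sided exact permutation test gave the smallest p it can, 0.333. Rank made less difference: the median was 68777 bp in the 479 best ranked members, 65455 bp in the next 481 and 89401 bp in the last 467. With 1 DN list standing for the stage it was 227878 bp without DN 1 and 168336 bp without DN 2. With noncoding genes counted as genes the rule left members at a median of 23767.5 bp from the nearest gene of any kind.

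**Figure D2:**
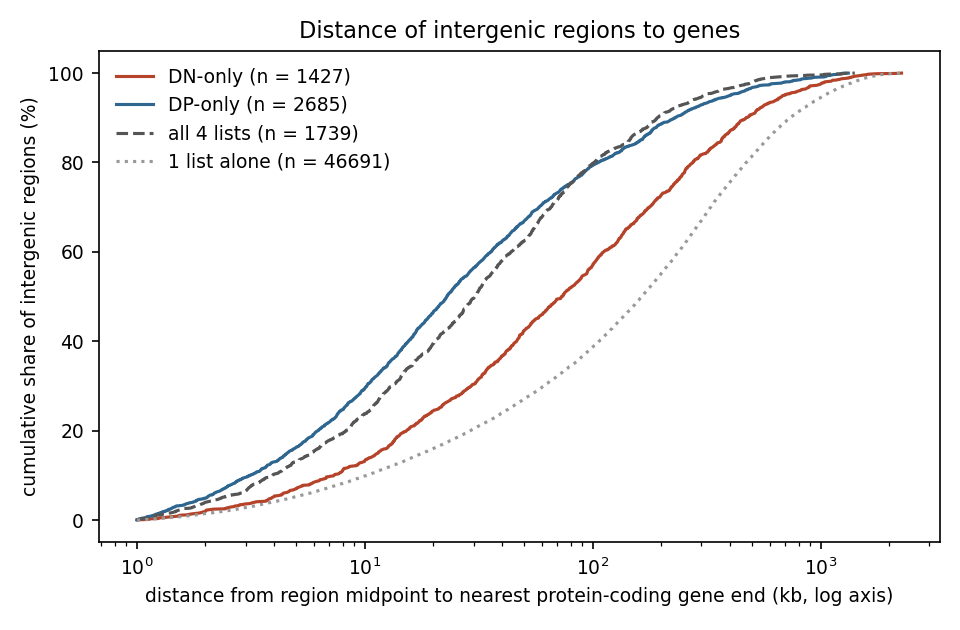
Cumulative share (vertical axis, %) of intergenic regions within a given distance of the nearest protein-coding gene end (horizontal axis, kb, log scale), for DN-only, DP-only and shared regions and for regions of a single list. The DN-only curve runs between the DP-only and shared curves on its left and the single-list curve on its right.

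Although no DP peak touches a member, many members have one nearby. The nearest DP peak was a median of 37701 bp away in DP 1 and 13351 bp in DP 2, the longer list. A DP peak of either list lay within 1 kb of 102 members (7.15%) and within 10 kb of 667 (46.7%). The shares are similar the other way round: a DN peak of either list lay within 1 kb of 5.70% of DP-only intergenic regions and within 10 kb of 39.7%. Only 26 members (1.82%) were more than 100 kb from any DP peak, while 6.93% of DP-only intergenic regions were that far from any DN peak.

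Most members stood alone. When members up to 50 kb apart were chained, 1161 had no partner and 266 (18.6%) fell into 123 chains, of which 107 were pairs, 13 had 3 members, 2 had 4 and 1 had 5. The longest chain holds 5 members within 73500 bp, more than 500 kb from Dsel (chr1:112378601-112452100), a gene for a dermatan sulfate epimerase-like protein. The stretch holds 7 and 6 peaks in DN 1 and DN 2, against 1 and 1 in DP 1 and DP 2, and 4 members overlap the lncRNA Gm32810, whose start is printed above. Between Nkx2-2 and Pax1, genes for a homeodomain and a paired-box factor, 4 members within 36700 bp (chr2:147269051-147305750) lie over the lncRNA Nkx2-2os, with 4 and 4 peaks in the DN lists, against 0 and 1 in the DP lists. Near Foxa2, a forkhead factor gene of the endoderm on the same chromosome, 3 members fall within 19250 bp (chr2:147789201-147808450). Here the lists held 3 and 3 DN peaks, against 0 and 4 DP peaks, so that DP 2 has more peaks in this stretch than either DN list, none of them touching a member. A chain of 4 lies next to Prl2c2 and Prl2c3 (chr13:12864101-12935600), with 11 and 14 DN peaks, against 3 and 4 DP peaks. These 2 genes belong to a family of near-identical prolactin-like genes, and how reads were placed among its copies is not given in the sources used here. Of the 5 chains named here, the one with the shortest span has 3 members within 5650 bp at Tcp10c and Tcte2 (chr17:13544551-13550200). It had 5 and 5 DN peaks, against 1 and 0 DP peaks. By chromosome, DN-only regions made up 1.29% of the intergenic regions of X, 1.91% of those of chromosome 1, and 3.20, 3.14 and 3.14% of those of chromosomes 19, 18 and 3. Chromosome 3 held the most, 146 members (10.2%).

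The members were spread over many genes. They had 1057 different nearest protein-coding genes, or 4.89% of the 21627 genes placed, and 817 of these had a single member. DP-only intergenic regions had 1814 nearest genes (8.39%). Of the 1057 genes with a member, 869 had no DP-only intergenic region and 188 had at least 1. Beside these, 1814 of all 8716 genes with an intergenic region of any kind had a DP-only one. The overlap of the 2 sets of genes was not tested. The 20 genes with the most members had a median of 81.5 intergenic regions of any kind (16 to 198), against 11 for all genes with a member and 2 for all genes with an intergenic region. Most thus lie beside many intergenic regions, with Impg1 (16), S1pr1 (23) and Ednrb (25) at the low end. Dsel and Adgrl2, which encodes the adhesion receptor latrophilin-2, had 9 members each. Mef2c had 8, and Negr1 (a neuronal adhesion protein), Trim52, Cited2 (a partner of the coactivators CBP and p300) and Acvr2a (an activin receptor) had 6 each. Rapgef2, an exchange factor for the GTPase Rap1, had 5. Genes with 4 each included Dach1, Usp25, Adgrl4, S1pr1, Pcdh17, Ednrb, Zeb2, Diaph3, Impg1, Pcdh18 and Flrt2.

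Around Dsel, 41 and 43 intergenic peaks lay in DN 1 and DN 2, against 11 and 40 in DP 1 and DP 2. Per 10000 peaks of a list that is 10.6 and 13.0 in DN, against 2.77 and 5.68 in DP, without overlap. Around Rapgef2 the lists held 5.41 and 6.94 intergenic peaks per 10000 in DN, against 1.26 and 2.42 in DP. Such levels include the members, which count toward DN by construction. Around Adgrl2 the same levels overlapped, at 16.2 and 16.9 in DN and 15.6 and 16.3 in DP, and this gene had 4 DP-only and 8 shared intergenic regions beside its 9 members. Cited2 also overlapped, with 3.09 and 3.02 in DN and 1.76 and 3.55 in DP. Its 6 members lay 201103 to 1070603 bp from the gene. Negr1 had 8.50 and 6.34 in DN and 3.78 and 7.53 in DP. One of its members, chr3:156198451-156199200, had p-values of 2.27e-06 in DN 1 and 2.28e-06 in DN 2. Ednrb, the endothelin receptor gene, had 2.58 and 3.02 in DN and 0.755 and 2.42 in DP, and its members lay close, 6042 to 105692 bp from the gene. Most of these numbers of members were larger when 1 DN list stood for its stage: without DN 1 and without DN 2 they were 38 and 38 for Dsel, 29 and 36 for Adgrl2, 14 and 24 for Negr1, 15 and 11 for Acvr2a, and 19 and 16 for Rapgef2. In the better ranked 50% of each list Dsel had 5, and with noncoding genes counted as genes Dsel had 5 and Adgrl2 4.

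**Figure D3:**
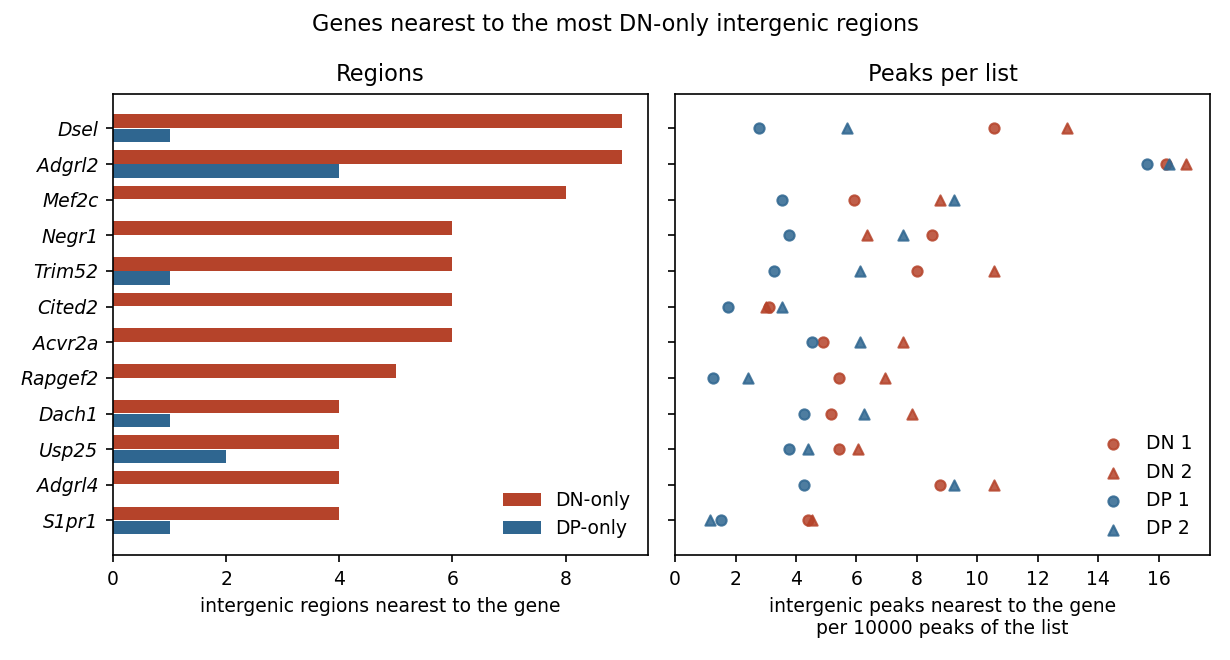
Left, number of DN-only and DP-only intergenic regions for which each of the first 12 of these genes is the nearest; right, intergenic peaks nearest to the gene per 10000 peaks of each list. All 12 genes have more DN-only than DP-only regions because the DN-only count ranked them, while the 4 lists overlap at several genes, Adgrl2 and Cited2 among them.

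Mef2c encodes a MADS-box factor of blood progenitors, B cells and muscle that is low in committed T cells. Its 8 members lie on both sides of the gene (chr13:83504017-83667079), from 45192 to 704242 bp away, and it had no DP-only and 1 shared intergenic region. The 2 best ranked members flank it. The first, chr13:83458451-83459200, lies 45192 bp from the gene with p-values of 2.44e-05 in DN 1 and 2.76e-05 in DN 2. The second, chr13:83724851-83725500, lies 58096 bp from the other end with 1.68e-05 and 1.79e-05. The weakest, chr13:83075401-83075900, had 8.05e-05 in DN 1 and the largest p-value of its list, 0.00054, in DN 2, and lay 601 bp from a DP 2 peak. Intergenic peaks nearest to Mef2c numbered 23 and 29 in the DN lists, against 14 and 65 in the DP lists. Per 10000 peaks these were 5.93 and 8.75 in DN and 3.52 and 9.23 in DP, so the stages overlap over the wide space around the gene, and the members are single sites within it. Mef2c had 22 members without DN 1 and 16 without DN 2, and 5 in the better ranked 50% of each list or with noncoding genes counted as genes.

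S1pr1 encodes the receptor for sphingosine-1-phosphate through which mature thymocytes leave the thymus. It had 4 members, 1 DP-only and 3 shared intergenic regions among 23 in all. Members made up 17.4% of these, a share that follows in part from choosing genes by their number of members. Its best ranked member, chr3:115763051-115763700, lies 48320 bp from the gene with p-values of 2.44e-05 in DN 1 and 5.68e-06 in DN 2. Nearer to the gene, at 19970 bp, chr3:115734701-115735350 had 1.71e-05 in DN 1 and 2.45e-05 in DN 2, and the nearest peak of either DP list was 19451 bp from it. The other members lie 78645 and 168483 bp away, the last of them 901 bp from a DP 2 peak. The lists held 17 and 15 intergenic peaks nearest to S1pr1 in DN, against 6 and 8 in DP, which is 4.38 and 4.53 per 10000 in DN, against 1.51 and 1.14 in DP. The stages do not overlap in number or per 10000. These peaks include the members, which count toward DN by construction and for which the gene was named, so the gap follows in part from the choice. S1pr1 had 7 members without DN 1 and 12 without DN 2.

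**Figure D4:**
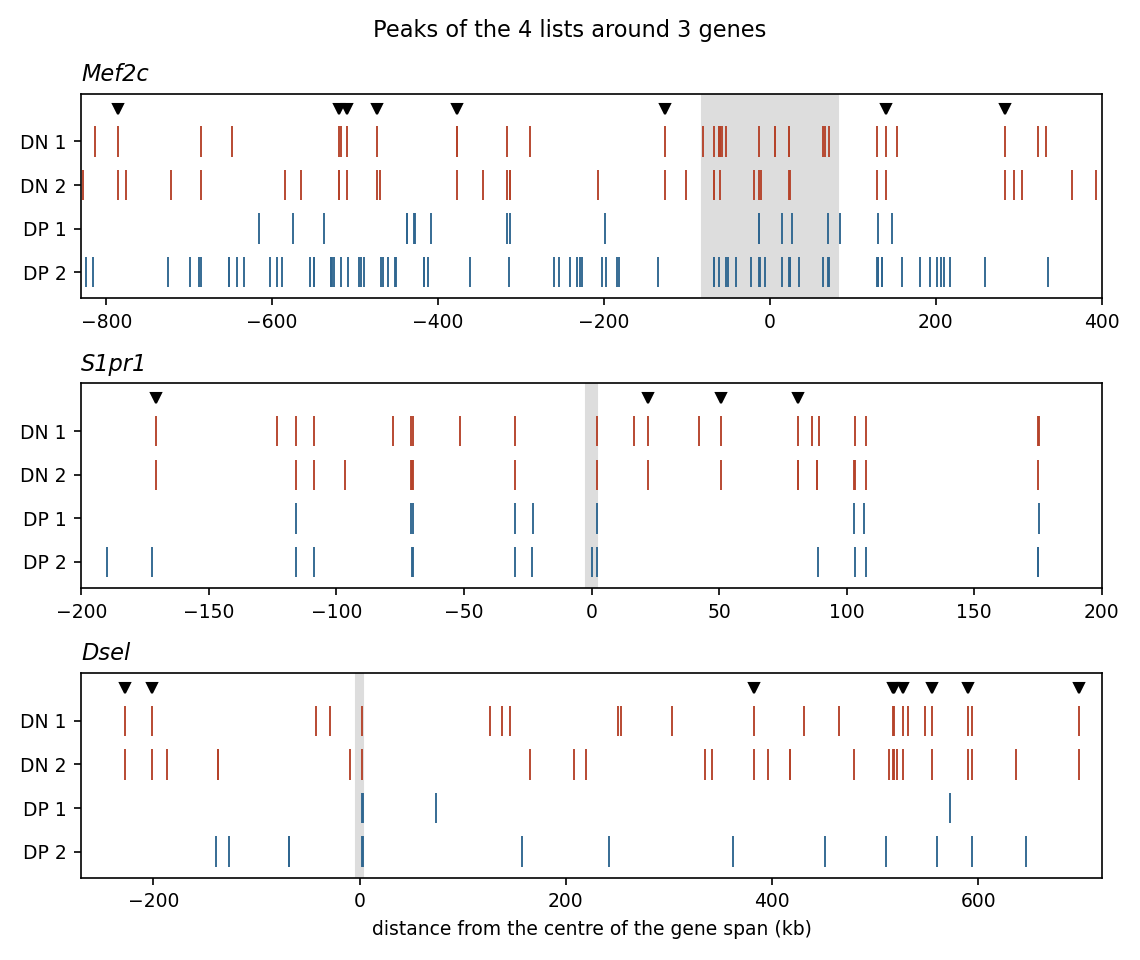
Peaks of the 4 lists (vertical ticks, DN above DP) around Mef2c, S1pr1 and Dsel by distance from the centre of the gene span (horizontal axis, kb); grey marks the gene and black triangles the members. Triangles stand over ticks of both DN rows and of neither DP row, and DP 2 has many other peaks around Mef2c.

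Genes of early T cells were grouped into 10 lists. Among 24 progenitor genes silenced in T cell commitment, 7 (29.2%) were the nearest gene of a member, beside 4.89% of all genes, and 4 (16.7%) were the nearest of a DP-only intergenic region, beside 8.39%. These 24 genes lie beside more intergenic regions than most, since 18 of them had at least 1, and 12.1% of all genes with at least 1 had a member. By regions, 14 of the 304 intergenic regions nearest to the list were members (4.61%, beside 2.51% over all). Mef2c gave 8 of the 14. Without it 6 of 206 were members (2.91%), near the background. The other 6 genes had 1 member each. The Lmo2 member (chr2:103902151-103902800) lies 55428 bp from this oncogene of early blood cells, with p-values of 7.61e-05 in DN 1 and 0.000269 in DN 2, and 401 bp from a DP 2 peak. The Mycn member (chr12:12738501-12739100), at 197293 bp, had 4.14e-05 in DN 1 and 6.77e-05 in DN 2, with the nearest DP peak 31001 bp away. Erg, an ETS factor of stem cells, had a member at 6794 bp with 0.000167 and 0.00054. For Bcl11a, Meis1 and Id2 both DN lists gave their largest p-value, so these members stand at the limit of the peak calls. The number of progenitor genes with a member was 4 in the better ranked 50% of each list and 5 with lists cut to the shortest. It was 8 without DN 1, 12 without DN 2, and 6 or 7 under the other settings. The number over all genes moved too: in the same order it was 755, 1124, 2858 and 3353, against the 1057 given above.

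In the other 9 lists the share of genes with a member ran from 0 to 15.4%, beside 4.89% of all genes. The share with a DP-only region ran from 15.4 to 58.1%, beside 8.39% of all genes, and over all genes too more had a DP-only region than a member. Of 24 genes of the CD25+ DN stage, 1 had a member and 13 a DP-only intergenic region. The 1 was Gata3, a factor required for T cell specification, whose member lies 373703 bp away (chr2:9483001-9483750), with p-values of 0.000167 in DN 1 and 6.77e-05 in DN 2. Of 24 DP-stage genes, 2 had a member and 12 a DP-only region. These were Cd69, an early activation antigen, and Tox, a factor needed for CD4 lineage cells, and DN 2 gave its largest p-value at both. Among 31 transcription factors of T cells, 4 (Gata3, Id2, Foxp1 and Tox) had a member and 18 a DP-only region. Of 28 cytokine and chemokine receptor genes 0 had a member and 10 a DP-only region. Of 22 migration and adhesion genes 1, S1pr1, had members and 12 a DP-only region. The Notch pathway gave 1 of 26, Rbpj, which encodes the DNA-binding partner of Notch and whose member stood at the largest p-value in both DN lists, against 6 with a DP-only region. Cell cycle genes gave 1 of 20 (Mycn) and 7, NK and innate lymphoid genes 2 of 13 (Klrb1c and Id2) and 2, and gamma-delta lineage genes 0 of 11 and 3. Among the marker genes of other cell types, Klrb1c, which encodes the NK cell antigen NK1.1, had 1 member at 1259 bp. B cell, myeloid, dendritic and stromal markers had 0.

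**Figure D5:**
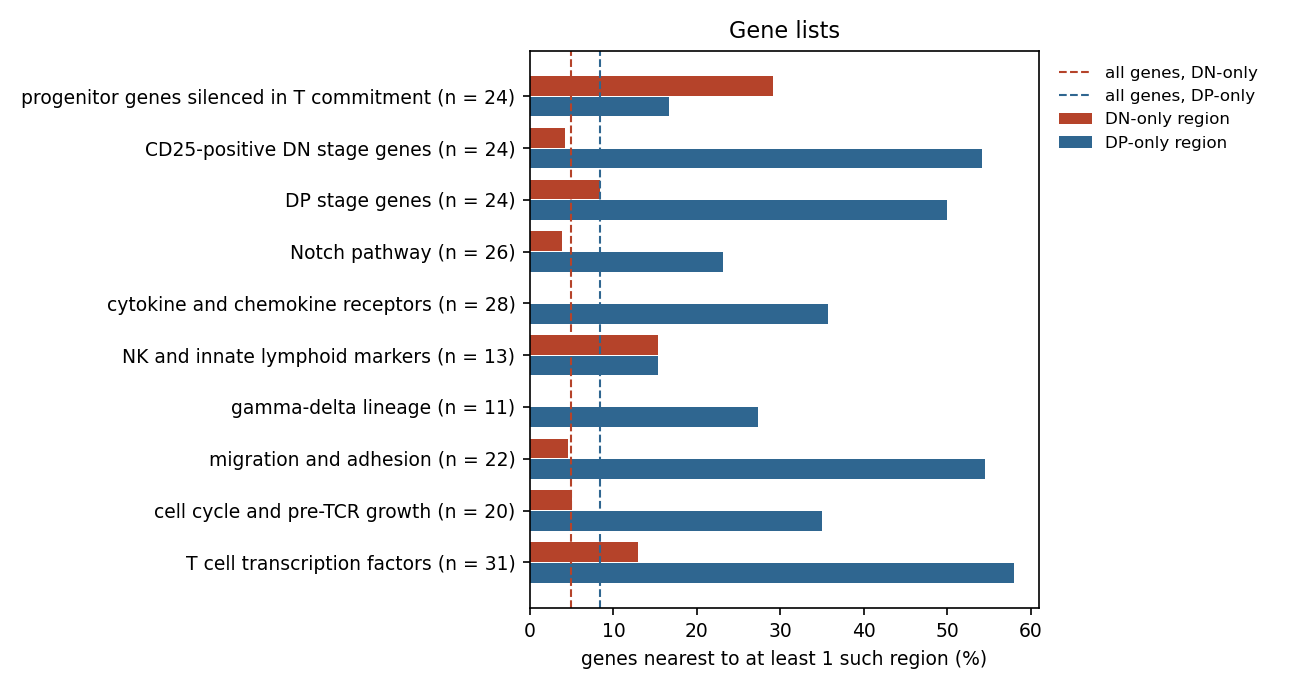
Share of the genes of each list (horizontal axis, %) that are nearest to at least 1 DN-only or DP-only intergenic region; dashed lines give the shares over all 21627 genes, 4.89% and 8.39%. The DN-only bar is the longer one for the progenitor list, both are equal for the NK and innate lymphoid list, and the DP-only bar is longer for the other 8.

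A few members fell in antigen receptor loci, whose segments are not protein-coding genes in the annotation used and so count as intergenic. The Tcrb locus held 5 members, 2 DP-only and 6 shared regions among 49 intergenic regions, so that 10.2% were members, beside 2.51% over all. The member over the V segment Trbv24 (chr6:41218251-41218900) had p-values of 6.19e-05 in DN 1 and 4.6e-05 in DN 2, with the nearest DP peak 2101 bp away. Those over Trbv2, Trbv5 and Trbv12-1 had weaker p-values, 0.000144 to 0.000303 in DN 1 and 0.000155 to 0.00054 in DN 2, and a DP peak lay only 251, 201 and 201 bp from them. Tcrg, the gamma chain locus, held 2 members and 0 DP-only regions among 13 (15.4% members). Igk, the kappa light chain locus, held 4 members and 1 DP-only region among 101 (3.96% members). Igh held 0 members and 52 DP-only regions among 160, and Igl 0 of either among 3. Of the 6 in Tcrg and Igk, 5 had the largest p-value of at least 1 DN list, and 2 of those had it in both. Tcra, with the delta chain locus nested in it, held 1 member and 28 DP-only regions among 85 (1.18% members). The member lies over Trdd2 and Trdj1 (chr14:54122001-54123200), with p-values of 2.91e-07 in DN 1 and 1e-12 in DN 2. It is 1200 bp wide, and a DP 1 peak lies 501 bp away.

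Noncoding genes overlapped 285 members. A lncRNA was overlapped by 242 of them (17.0%), a share below the 22.5% of DP-only and 26.0% of shared intergenic regions and above the 13.9% of all intergenic regions. A pseudogene was overlapped by 21. The lncRNAs with the most members were Gm32810 and Nkx2-2os with 4 each, and 2700054A10Rik, Gm15270 and Gm33655 with 3 each. A single member contained a microRNA gene, Mir6361, and a single member a transfer RNA gene, n-TRcct2.

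The best ranked member lay 45428 bp from Rab38, a GTPase gene of pigment granules (chr7:88536651-88537350). It had the lowest p-value of either DN list, 1e-12, in both, and the nearest DP peaks were 54451 bp away in DP 1 and 6951 bp in DP 2. Next came a region 9448 bp from Agtr1b, an angiotensin receptor gene (chr3:20304601-20305450), with 1e-12 in DN 1 and 2.8e-07 in DN 2, followed by the Trdd2 region given above. A region 364836 bp from Fmr1 (chrX:68313401-68314000) had 2.91e-07 in DN 1 and 1e-12 in DN 2 and stood 75051 bp from the nearest DP peak. Near Dach1, 227096 bp away, a region had 5.1e-06 in DN 1 and 1e-12 in DN 2, with a DP 2 peak 1601 bp away. The member near Cblb, which encodes a ubiquitin ligase that restrains T cell activation, lay 678880 bp from the gene (chr16:51352001-51352700) with 2.91e-07 in DN 1 and 5.68e-06 in DN 2. The others of the 12 best ranked were nearest to Slc7a12, Atp6ap1l, Suclg2, Negr1, Trim52 and A26c2.

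Among the members farthest from any protein-coding gene, 4 lay in wide gene-poor spaces of chromosomes 14 and 8. On chromosome 14, beside protocadherin genes, they were 2263754 bp from Pcdh20, 2157550 bp from Pcdh9 and 1758363 bp from Pcdh17. On chromosome 8 a member lay 1658238 bp from Slc10a2, and this one ranked high, with p-values of 7.95e-06 in DN 1 and 7.94e-06 in DN 2.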

How the data were processed

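Groups came from the sample labels (2 DN, 2 DP). Reads were aligned to mm10, and Bowtie2 and Picard were used, per the submitters' processing notes; that PeakDEck called the peaks is known from the names of the deposited lists. The sources used here do not give versions, peak calling settings, read filtering or any offset applied to cut sites. Each deposited list gives a p-value per peak, the authors' own, used only to rank peaks within a list. Read counts were not used here, so no interval that needs depth was computed.

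Peaks were merged and classed with Python 3.11.15, numpy 2.4.6 and pandas 2.3.3, and figures drawn with matplotlib 3.10.9. Gene spans came from RefSeq GRCm38.p6, the build of mm10; coordinates count from 1. The merging was checked on planted regions. The exact permutation test was computed in Python over every possible split of the lists. No set of regions or genes was tested, since the lists that chose the members would also give the test. The members and gene lists were chosen with earlier results of these data known. The planned search of 16 motifs in the regions themselves was replaced by RefSeq windows at gene starts, since no genome sequence was used. Genes named are the 20 nearest to the most members, up to 6 per list with a member, and those of the 12 best ranked members, 5 longest chains and 5 farthest members; others were chosen after their values were seen. Some genes that this rule names are not reported here. Of 187 list genes 186 were in the gene table. Alternatives were the better ranked 50% of each list, lists cut to the shortest, 50% overlap, merging within 250 bp, margins of 500 bp, 2500 bp and 10 kb, noncoding genes included, each list left out, and a replicate block.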

Additional observations from a re-analysis of the deposited data

Results flagged for a closer look

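Peaks outside the chromosomes used were few. The Y chromosome held 7 and 5 peaks in DN 1 and DN 2, against 13 and 11 in DP 1 and DP 2. The mitochondrial genome held 7 and 8 peaks in DN 1 and DN 2, against 9 and 9 in DP 1 and DP 2. They are listed because no comparison above uses them.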

How the results depend on the processing

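The number of members was 967 to 1555 under the 8 settings that keep all lists, and 1615 to 12189 with 1 list left out. The intergenic share of DN-only regions was 45.8% with a margin of 10 kb and 41.4% with noncoding genes included, stayed closer to 52.8% under the other 6 settings, and ran from 50% to 66.9% with 1 list left out. The DN minus DP difference in the intergenic share of peaks, 6.60 percentage points, was 6.46 to 12.6 under the settings that keep all lists and 1.56 to 11.6 with 1 list left out, positive in each. With the replicate number as a block it was 6.60, with an exact sign-flip p of 0.5. Nothing shows that the numbers pair samples: over 22380 regions held by 2 or 3 lists, deviations of same-numbered lists correlated at 0.0362. The counts for single genes and for the progenitor list were chosen for these settings after their values were seen, and are given with the genes. Since depth is unknown, the absence of a DP peak at a member could not be checked against reads.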

Other observations

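Of the 33 intergenic regions over a small nucleolar RNA (snoRNA) gene, 5 were DN-only (15.2%), against 2.51% of all intergenic regions. Another 6 of the 33 were DP-only, against 4.73% of all intergenic regions, so the raised share is not particular to DN-only regions. The DN-only share was noticed in the data, and no test was run. All 5 DN-only regions lie over snoRNA genes of 131 to 133 bp, a length shared by 277 of the 1340 annotated snoRNAs. They are Gm23439, Gm26436, Gm22267, Gm25345 and Gm23270, and the centre of the gene is 2 to 40 bp from the centre of the region. The Gm22267 region (chr6:24894451-24895100) had p-values of 1.02e-05 in DN 1 and 6.55e-05 in DN 2, and the Gm26436 region (chr4:4729351-4729900) 1.68e-05 and 4.6e-05. Over snoRNAs of that length lay 21 intergenic regions in all, of which 5 were DN-only, 5 DP-only and 0 in all 4 lists. DN 1 and DN 2 held 9 and 12 of them, against 7 and 9 in DP 1 and DP 2. SnoRNA genes can be near-identical copies, and how reads were placed among copies is not given in the sources used here.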
